A study of Homo sapiens
Mus musculus and Mus musculus and Homo sapiens with 16 samples.

Results

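The genes described here are the matrix metalloproteinases (Mmp), the tissue inhibitors of metalloproteinases (Timp), the ADAM and ADAMTS proteases and the lysyl oxidases of the mouse stromal cell line MS-5. They were taken by symbol from the mouse gene table as protein-coding genes of the Mmp, Timp, Adam, Adamts and Lox or Loxl families. The rule gave 83 of 49671 genes, which comprised 22 Mmp, 4 Timp, 33 Adam, 19 Adamts and 5 lysyl oxidase genes. The rule used no measured value.

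MS-5 is an established line of bone marrow stromal cells of the mouse, and REC-1 is an established human mantle cell lymphoma line. In 4 libraries MS-5 cells had been grown alone. In 4 others, named Adh after the adherent fraction, MS-5 cells had been seeded first and were harvested together with the REC-1 cells that adhered to them after 24 h of coculture. Both groups were in the same medium, the labels name no engineered allele and no drug, and each group rests on 1 stromal line. The adherent cells were not sorted: RNA of both species was sequenced together and the read pairs were divided by species in silico, so that the mouse counts of the Adh libraries stand for MS-5 cells in coculture. In these bulk libraries fewer cells of a kind and less RNA per cell cannot be told apart. The labels do not say whether libraries of a group came from separate cultures, while the study speaks of independent experiments for its lymphoma fractions, and the p-values measure the spread between these libraries.

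Mouse counts per library ranged from 10097555 to 17397651 for MS-5 alone and from 29495404 to 34615602 in coculture, where 18.3 to 28.2% of the counts of both species were human. Of 12 stromal marker genes 11 were tested and the other, Thy1, was at 0 counts in all libraries, while the summed level of the list was 10564 to 11382 CPM (counts scaled to library size) alone and 10240 to 11769 CPM in coculture. Markers of B cells summed to at most 0.431 CPM in any library, with Cd79b, Pax5, Ptprc and Cd22 among those at 0. Markers of macrophages, 6 genes of which 3 were tested, summed to between 5.16 and 7.98 CPM. The means alone and in coculture were 3.16 and 3.74 CPM for Cd68, 1.57 and 2.21 CPM for Lyz2, and 1.16 and 0.594 CPM for Csf1r. Aif1 had 13 counts in all, and Adgre1 and Itgam were at 0. Markers of endothelium and of neutrophils summed to at most 0.231 CPM. One library of MS-5 alone, replicate 2, stood apart from the other 7 on the first principal component (34.5 against -10.8 to 0.639), and it was also the shallowest. In the edgeR test of coculture against MS-5 alone, the number of members called was 0 with this library and 0 without it.

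Matrix metalloproteinases are zinc-dependent enzymes that cut collagens and other matrix proteins, and they are made as inactive proenzymes. The inhibitors of the Timp family bind their active sites. ADAM proteases sit in the cell membrane and release the outer parts of other membrane proteins, ADAMTS proteases are secreted and cut proteoglycans or trim procollagens, and lysyl oxidases cross-link collagen and elastin. In marrow, stromal cells make and remodel the matrix to which blood and lymphoma cells attach.

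The protease families share a site at which histidines hold the catalytic zinc. It is shown here because it sets the members that carry the site of an active metalloprotease apart from those that do not. The site was searched in frame on the coding strand, in the longest coding transcript of each gene (GENCODE M21, GRCm38), as a histidine codon (CAT or CAC), a glutamate codon (GAA or GAG), 2 codons of any kind, a histidine codon, 5 codons of any kind and a histidine codon. It was found in 61 of the 74 protease members, that is in 22 of 22 Mmp, 20 of 33 Adam and 19 of 19 Adamts genes, in none of the 9 Timp and lysyl oxidase genes, and in 0.44% of the 21350 protein-coding genes with a coding sequence. Of the 26 proteases measured well enough to be tested, Adam11 and Adam23 were without a match. Histidine codons are in capitals in the sequences of 8 tested members, 4 Mmp genes, 2 Adam genes and 2 Adamts genes.
Mmp14: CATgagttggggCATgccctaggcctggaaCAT
Mmp2: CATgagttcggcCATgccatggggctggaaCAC
Mmp11: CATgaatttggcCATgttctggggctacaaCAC
Mmp13: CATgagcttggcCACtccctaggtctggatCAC
Adam10: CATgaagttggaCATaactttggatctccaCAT
Adam17: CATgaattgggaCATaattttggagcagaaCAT
Adamts1: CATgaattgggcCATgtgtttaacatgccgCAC
Adamts5: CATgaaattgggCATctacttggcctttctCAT
In the coding sequence the site spans bases 715 to 747 of Mmp14, 1207 to 1239 of Mmp2, 655 to 687 of Mmp11, 667 to 699 of Mmp13, 1150 to 1182 of Adam10, 1270 to 1302 of Adam17, 1204 to 1236 of Adamts1 and 1228 to 1260 of Adamts5. A stricter form with a glycine codon (GGN) as the third codon after the second histidine was found in 55 of the 74 proteases and in 0.319% of all genes, and Adamts1 was among the 6 Adamts genes that had only the wider form.

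Most metalloproteinases also carry in their propeptide a cysteine that blocks the zinc until the enzyme is activated. A search for this cysteine switch (codons for proline, arginine, cysteine, glycine, any residue, proline and aspartate) matched 16 of the 22 Mmp genes and no other gene among the 21350. Of the 8 tested Mmp genes Mmp14, Mmp2, Mmp13 and Mmp9 held it, while Mmp11, Mmp19, Mmp23 and Mmp28 did not in this exact form. The switch is shown with the cysteine codon in capitals for the most highly expressed Mmp gene and for the Mmp gene with the largest difference between the groups.
Mmp14 switch: cctcgcTGTggtgttccggat
Mmp13 switch: ccaagaTGTggagtgcctgat

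To ask whether adherent lymphoma cells were accompanied by other levels of the matrix-modifying genes of the stroma, MS-5 in coculture was compared with MS-5 alone. No member was called under the rule used throughout (adjusted p no higher than 0.05, change 1.5-fold or larger), among 32 members tested, where 25 of the 12201 genes tested were called (0.205%). Without the fold minimum edgeR's count was also 0 members, against 94 genes (0.77%). At an unadjusted p below 0.05 there were 7 members of 32, against 1374 of all genes (11.3%). Of these Lox, Mmp11 and Mmp13 had higher values in coculture, as did 5.16% of all genes at this p, and Adamts1, Loxl4, Adamts5 and Timp1 had lower values, as did 6.1% of all genes. DESeq2, a second count model, called 1 member, Mmp13, and 38 genes in all (0.311%). Without the fold minimum it gave 4 members of 32, against 254 of 12201 genes. With the replicate number as a block edgeR gave 5 members of 32, against 435 of 12201 genes. Without the filter on low counts edgeR gave 5 members of 49, against 348 of 21574 genes.

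The differences were small for most members. The 95% interval of the fold change lay within 1.5-fold in either direction for 25 of the 32 members, against 9724 of all genes (79.7%), and for 23 of the 24 members with a mean of at least 10 CPM in one group. Mmp13 was the exception among those 24. The median of the log2 fold changes (coculture over alone) was 0.074 for the members and -0.0017 for all genes, and 22 of 32 members had a value above 0, as did 49.6% of all genes. In 3 members the libraries of the groups did not overlap, Mmp11 with all 4 coculture libraries higher and Loxl4 and Adamts1 with all 4 lower. Of all genes 822 did not overlap (6.74%), 3.06% being higher and 3.68% lower in coculture.

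**Figure D1:**
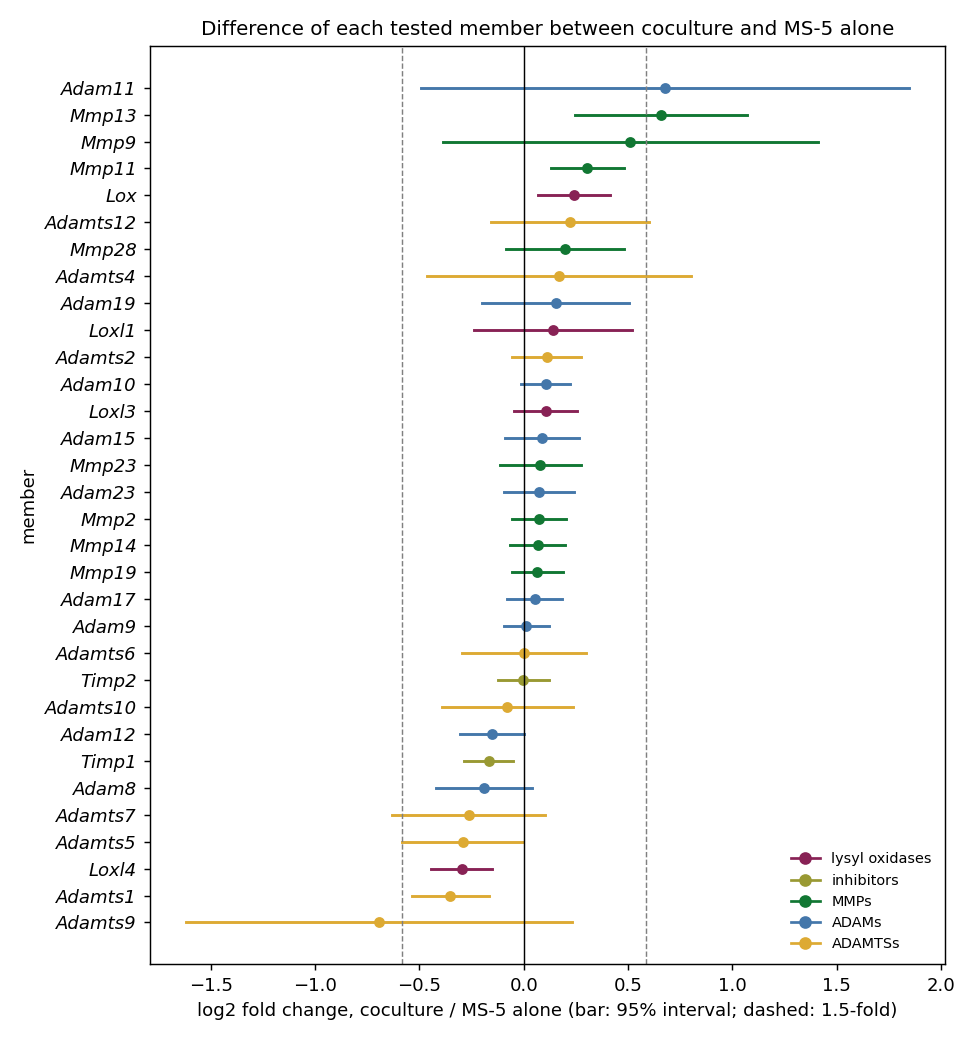
Difference of each of the 32 tested members between MS-5 in coculture and MS-5 alone, as log2 fold change on the x axis, with the 95% interval as a bar, 1 row a gene, coloured by family, and dashed lines at 1.5-fold. All points but those of Adam11, Mmp13 and Adamts9 lie within 1.5-fold, and of these 3 the interval of Mmp13 leaves out 0.

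Levels of different genes were compared per exon length, as RPKM (CPM divided by kilobases of exon, mean ± SD, n = 4 each). By this measure Lox stood highest of the members, at 337 ± 32 RPKM alone and 399 ± 47.3 RPKM in coculture, which placed it 76th of the 12201 genes tested by mean level over all libraries. Timp1 followed at 212 ± 10.2 RPKM alone and 189 ± 9.97 RPKM in coculture, then Timp2 at 120.2 ± 5.46 RPKM alone and 120.0 ± 8.80 RPKM in coculture and Adam9 at 88.6 ± 4.14 RPKM alone and 89.4 ± 3.46 RPKM in coculture. The ranges of these 4 genes over the libraries did not overlap with each other in either group. Mmp14 (30.2 ± 2.26 RPKM alone and 31.6 ± 1.85 RPKM in coculture) and Mmp2 (28.9 ± 1.90 RPKM alone and 30.5 ± 1.20 RPKM in coculture) stood next to each other and did not differ beyond their spread. At the low end stood Adam11 (0.0503 ± 0.0361 RPKM alone and 0.0824 ± 0.0149 RPKM in coculture) and Adamts9 (0.0363 ± 0.00653 RPKM alone and 0.0217 ± 0.00774 RPKM in coculture).

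**Figure D2:**
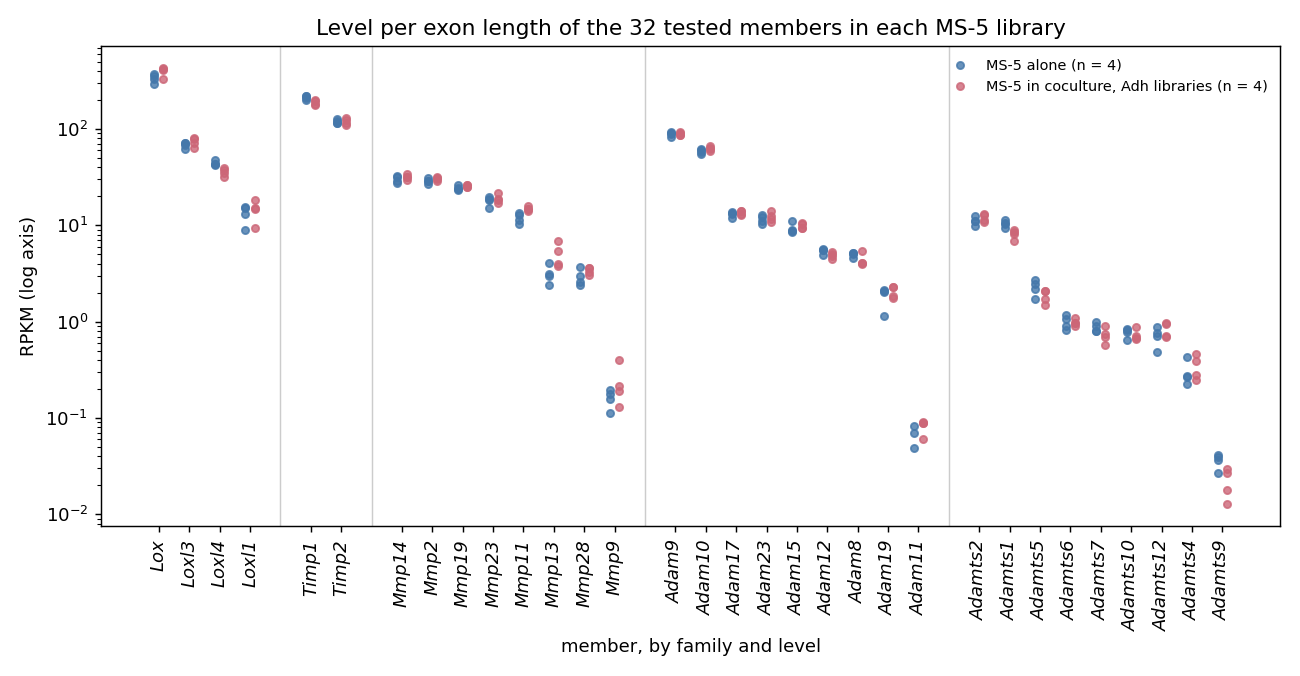
Level of each tested member in each library, as RPKM on a log axis, in blue for MS-5 alone and in red for coculture (4 libraries each), grouped into lysyl oxidases, inhibitors, Mmp, Adam and Adamts genes. The points of the groups lie side by side for most genes over a range from Lox at 337 RPKM alone to Adamts9 at 0.0363 RPKM, and the 1 library of MS-5 alone with 0 counts of Adam11 cannot be drawn on this axis.

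Among the metalloproteinases, 22 genes, 8 were tested and the log2 fold change of all 8 was above 0, from 0.065 (Mmp19) to 0.66 (Mmp13), and stayed above 0 in every alternative fit in which the gene was tested. None was called. Mmp14, a membrane-bound enzyme that activates the proenzyme of Mmp2 (chromosome 14, 54431612 to 54445364), was at 190.2, 166, 192 and 171 CPM alone and 201, 189, 175 and 189 CPM in coculture. The difference was within the spread of the libraries (log2 fold change 0.066, SE 0.062, 95% interval -0.066 to 0.20, adjusted p = 0.753). Mmp2, gelatinase A (chromosome 8, 92827291 to 92853420), was at 105, 97.5, 97.5 and 89.7 CPM alone and 106, 106, 97.5 and 101 CPM in coculture, and its groups overlapped (log2 fold change 0.073, SE 0.061, 95% interval -0.056 to 0.20, adjusted p = 0.706). Mmp9, the other gelatinase, was low, at 0.398 to 0.694 CPM alone and 0.460 to 1.42 CPM in coculture. Its interval ran from -0.39 to 1.41, too wide to place the difference on either side of 0.

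Mmp13, collagenase 3, which cuts fibrillar collagens (chromosome 9, 7272514 to 7283331), had the largest fold change of the members with at least 10 CPM. Its level was 10.7, 6.37, 8.45 and 7.98 CPM alone and 10.6, 10.1, 18.2 and 14.5 CPM in coculture. Replicates 3 and 4 in coculture lay above all libraries of MS-5 alone, whereas replicates 1 and 2 lay within their range, so the groups overlapped. The mean was 8.38 ± 1.81 CPM alone and 13.3 ± 3.77 CPM in coculture (SD, n = 4 each). The fit gave a 1.58-fold higher value with a 95% interval of 1.19 to 2.10 (log2 fold change 0.66, SE 0.19, 95% interval 0.25 to 1.07, adjusted p = 0.165). It was called by DESeq2 (adjusted p = 0.0363), with the replicate number as a block (adjusted p = 0.0130), without a filter on low counts (adjusted p = 0.000100) and without both libraries of replicate 1 (adjusted p = 0.0469), while the adjusted p over all alternatives ran from 0.000100 to 0.546. The lowest fold change came without both libraries of replicate 3, at a log2 fold change of 0.47.

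Mmp11, stromelysin 3, typical of stroma around tumours (chromosome 10, 75923222 to 75936496), was at 35.2, 31.7, 37.2 and 28.9 CPM alone and 43.8, 39.5, 40.7 and 40.9 CPM in coculture. The lowest coculture library stood above the highest library of MS-5 alone, and the fold was 1.24, below the minimum of 1.5 (log2 fold change 0.31, SE 0.083, 95% interval 0.13 to 0.48, adjusted p = 0.123). Of the exon bases of Mmp11 5.58% are shared with Chchd10 on the opposite strand.

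Mmp19, which also cuts basement membrane proteins (chromosome 10, 128790910 to 128800824), was at 92.1, 85, 81.8 and 86.8 CPM alone and 91.6, 87.8, 88.4 and 93.7 CPM in coculture. These values overlapped (log2 fold change 0.065, SE 0.058, 95% interval -0.058 to 0.19, adjusted p = 0.733). Mmp23, an atypical membrane-anchored member (chromosome 4, 155650655 to 155653384), was at 42.8, 35.3, 43.7 and 46 CPM alone and 40.3, 42.9, 44.3 and 50.5 CPM in coculture, with groups that overlapped (log2 fold change 0.08, SE 0.09, 95% interval -0.11 to 0.27, adjusted p = 0.799). Mmp28, epilysin (chromosome 11, 83440768 to 83463071), was at 10.1, 9.36, 14.4 and 11.6 CPM alone and 11.8, 12.6, 14.1 and 14.1 CPM in coculture. All 4 coculture libraries lay within the range of MS-5 alone (log2 fold change 0.20, SE 0.13, 95% interval -0.087 to 0.48, adjusted p = 0.626). For Mmp19, 22.3% of the exon bases are shared with Tmem198b, and for Mmp28 12% with 1700020L24Rik, both on the opposite strand, and the library kit did not mark the strand.

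The 9 Mmp genes that lie together on chromosome 9 between 7272514 and 7699585 (GRCm38), the interstitial collagenases, stromelysins and their neighbours, were mostly at or near 0 counts. Mmp13, at one end of the cluster, was the only one tested. Mmp3, stromelysin 1, had 14 counts in all, 2, 2, 8 and 2 in the coculture libraries and 0 in the 4 libraries of MS-5 alone, which is too few to compare at the lower depth of the latter. Mmp27 had 2 counts, and Mmp1b, Mmp7, Mmp8, Mmp10, Mmp12 and Mmp20 had 0 in all 8 libraries. A count of 0 allows up to 3 counts, which is 0.0867 CPM in the deepest and 0.297 CPM in the shallowest library, and these limits would be larger if both mates of a pair were counted.

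Of the 4 inhibitors 2 were tested. Timp1, a secreted inhibitor (chromosome X, 20870166 to 20874735), was at 197, 193, 188 and 176 CPM alone and 174, 177, 159 and 162 CPM in coculture. Its coculture values were lower on average, with the lowest library alone within the range of the coculture libraries (log2 fold change -0.17, SE 0.055, 95% interval -0.29 to -0.05, adjusted p = 0.225). Timp2, which takes part with Mmp14 in the activation of Mmp2 besides inhibiting it (chromosome 11, 118301069 to 118355740), was at 495, 476, 453 and 450.0 CPM alone and 509.9, 477, 454 and 429 CPM in coculture. The groups had nearly equal means and the 95% interval of the fold was 0.92 to 1.09 (log2 fold change -0.0025, SE 0.057, 95% interval -0.12 to 0.12, adjusted p = 0.993). Timp3, the inhibitor that stays bound to matrix and acts on several ADAM proteases, was at 0 counts in all 8 libraries. Timp4 had 15 counts in all.

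Of the 33 ADAM genes 9 were tested and none had an unadjusted p below 0.05. Adam10 and Adam17, the principal sheddases of membrane proteins, and Adam9 stood highest per length. Adam9 (chromosome 8, 24949611 to 25016927) was at 382, 362, 342 and 371 CPM alone and 386, 354, 371 and 359 CPM in coculture, with nearly equal means (log2 fold change 0.013, SE 0.05, 95% interval -0.094 to 0.12, adjusted p = 0.958). Adam10 (chromosome 9, 70678997 to 70780229) was at 299.6, 301, 267 and 283 CPM alone and 330.1, 289.9, 311 and 307 CPM in coculture. It had overlapping groups (log2 fold change 0.11, SE 0.055, 95% interval -0.012 to 0.22, adjusted p = 0.499). Adam17, the converting enzyme of tumour necrosis factor (chromosome 12, 21323509 to 21373632), was at 95.2, 94.6, 84.2 and 97.3 CPM alone and 99.6, 90.5, 94.3 and 100.2 CPM in coculture, with an interval that lay within 1.5-fold (log2 fold change 0.052, SE 0.062, 95% interval -0.081 to 0.19, adjusted p = 0.811).

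Adam23, one of the 2 tested proteases without the zinc site, is a membrane protein thought to act in adhesion (chromosome 1, 63445891 to 63596276). It was at 229, 186, 199.9 and 217 CPM alone and 252, 194, 209 and 222 CPM in coculture, and the groups overlapped (log2 fold change 0.075, SE 0.079, 95% interval -0.092 to 0.24, adjusted p = 0.781). Adam12, a protease of mesenchymal cells (chromosome 7, 133883199 to 134232146), was at 59.1, 58.9, 59.7 and 51.5 CPM alone and 55.4, 53.1, 50.7 and 47.3 CPM in coculture. Only replicate 4 of MS-5 alone lay within the range of the coculture libraries (log2 fold change -0.15, SE 0.071, 95% interval -0.30 to 0.0012, adjusted p = 0.45). Adam15 (chromosome 3, 89338542 to 89349996) was at 54.7, 53.8, 67.9 and 52.7 CPM alone and 57.1, 64.1, 58.2 and 65 CPM in coculture, and 20.6% of its exon bases are shared with 4731419I09Rik on the opposite strand (log2 fold change 0.088, SE 0.083, 95% interval -0.09 to 0.26, adjusted p = 0.755).

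Adam8, best known from leukocytes (chromosome 7, 139978932 to 139992562), was at 24.1, 21.1, 23.9 and 23.4 CPM alone and 25.2, 18.6, 18.8 and 18.8 CPM in coculture. In coculture replicate 1 stood above all libraries of MS-5 alone and the other 3 stood below them (log2 fold change -0.19, SE 0.11, 95% interval -0.42 to 0.041, adjusted p = 0.547). Adam19 (chromosome 11, 46055992 to 46147343) was at 15.3, 14.7, 14.3 and 8.14 CPM alone and 16.4, 16.4, 12.7 and 13.1 CPM in coculture, with replicate 4 of MS-5 alone lower than the other 7 libraries (log2 fold change 0.15, SE 0.16, 95% interval -0.20 to 0.50, adjusted p = 0.79). Adam11, the other tested protease without the zinc site, reached at most 0.518 CPM, and its interval ran from -0.49 to 1.85.

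Of the other 24 Adam genes 18 had no count in any library, namely Adam1b, Adam2, Adam3, Adam6a, Adam6b, Adam7, Adam18, Adam20, Adam24, Adam25, Adam26a, Adam26b, Adam28, Adam29, Adam30, Adam33, Adam34 and Adam39, several of which are known from testis. Reads that mapped to several places had been left out of the counts, so that near copies such as Adam26a and Adam26b may be undercounted. Adam1a, Adam4, Adam5, Adam21, Adam22 and Adam32 had between 6 and 61 counts over the 8 libraries.

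Of the 19 ADAMTS genes 9 were tested and none was called, with a median log2 fold change of -0.079 and 4 values above 0. Adamts1, an aggrecan- and versican-cutting enzyme (chromosome 16, 85793827 to 85803113), was at 49.7, 55.9, 54.8 and 59.9 CPM alone and 36.4, 42.8, 45.6 and 47.7 CPM in coculture. All 4 coculture libraries stood below all 4 of MS-5 alone, with a mean of 43.1 ± 4.91 against 55.1 ± 4.23 CPM (SD, n = 4 each), a fold of 0.78 (log2 fold change -0.35, SE 0.087, 95% interval -0.54 to -0.17, adjusted p = 0.0836). Its neighbour Adamts5, aggrecanase 2 (chromosome 16, 85856173 to 85901828, 53.1 kb away and on the same strand), was at 18.7, 26.6, 23.3 and 29.3 CPM alone and 16.1, 18.8, 22.4 and 22.3 CPM in coculture. Here the groups overlapped (log2 fold change -0.29, SE 0.14, 95% interval -0.58 to -0.0034, adjusted p = 0.437). In each group replicate 1 was the lowest library for both of these genes.

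Adamts2, which removes the amino propeptide of procollagen (chromosome 11, 50602084 to 50807573), was the leading gene of this family per length, at 11.1 ± 1.07 RPKM alone and 12 ± 1.09 RPKM in coculture. By library it was at 104, 92.4, 117 and 103 CPM alone and 102, 121, 106 and 122 CPM in coculture, and the groups overlapped (log2 fold change 0.11, SE 0.078, 95% interval -0.057 to 0.28, adjusted p = 0.65). The remaining tested genes stood below 11 CPM in every library. Adamts6 (log2 fold change 0.00097), Adamts7 (-0.26), Adamts10 (-0.079), Adamts12 (0.22), Adamts4 (0.17) and Adamts9 (-0.69) had intervals that included 0, and those of Adamts4 and Adamts9 were wide, from -0.46 to 0.80 and from -1.62 to 0.23. Adamts3, Adamts8, Adamts13, Adamts15, Adamts17, Adamts18, Adamts19 and Adamts20 were at 0 in all libraries, and Adamts14 and Adamts16 had 93 and 2 counts.

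Lox, lysyl oxidase itself, which lies on chromosome 18, held 32.2 to 36.5% of the counts of all members in the libraries of MS-5 alone and 34.2 to 41.0% in coculture. It was at 1771, 1412, 1589 and 1677 CPM alone and 2062, 1572, 2016 and 1978 CPM in coculture. In 3 coculture libraries the level exceeded that of all libraries of MS-5 alone, while replicate 2 lay within their range, and in both groups replicate 2 was the lowest. The mean was 1612 ± 153 CPM alone and 1907 ± 226 CPM in coculture (SD, n = 4 each), a fold of 1.18 (log2 fold change 0.24, SE 0.081, 95% interval 0.069 to 0.42, adjusted p = 0.235).

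Loxl4 (chromosome 19, 42593982 to 42612813) had lower values in coculture. It was at 179, 199.8, 180.4 and 183 CPM alone and 157, 167, 132 and 147 CPM in coculture. Every coculture library was below every library of MS-5 alone, with means of 151 ± 14.8 against 185 ± 9.74 CPM and a fold of 0.81 (log2 fold change -0.30, SE 0.068, 95% interval -0.44 to -0.15, adjusted p = 0.0596). This adjusted p was the lowest of the members. It was 0.00679 with DESeq2, 0.00163 with the replicate number as a block, 0.000912 without the filter on low counts and 0.0228 without coculture replicate 2, and over all alternatives it ran from 0.000912 to 0.312, at a fold below 1.5 in each.

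Loxl3 (chromosome 6, 83034173 to 83052562) was at 329, 331, 313 and 283 CPM alone and 361, 369, 295 and 327 CPM in coculture. Its groups overlapped (log2 fold change 0.11, SE 0.071, 95% interval -0.046 to 0.26, adjusted p = 0.626), and 11.6% of its exon bases are shared with Htra2 on the opposite strand. Loxl1, the enzyme tied to elastic fibres (chromosome 9, 58287738 to 58313186), was at 29.4, 43, 49.5 and 50.5 CPM alone and 31.3, 48.3, 49.9 and 60.7 CPM in coculture. Its coefficient of variation was 22.5% alone and 25.6% in coculture, replicate 1 being the lowest in both groups (log2 fold change 0.14, SE 0.18, 95% interval -0.24 to 0.52, adjusted p = 0.826). Loxl2 had 26 counts in all and was not tested.

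**Figure D3:**
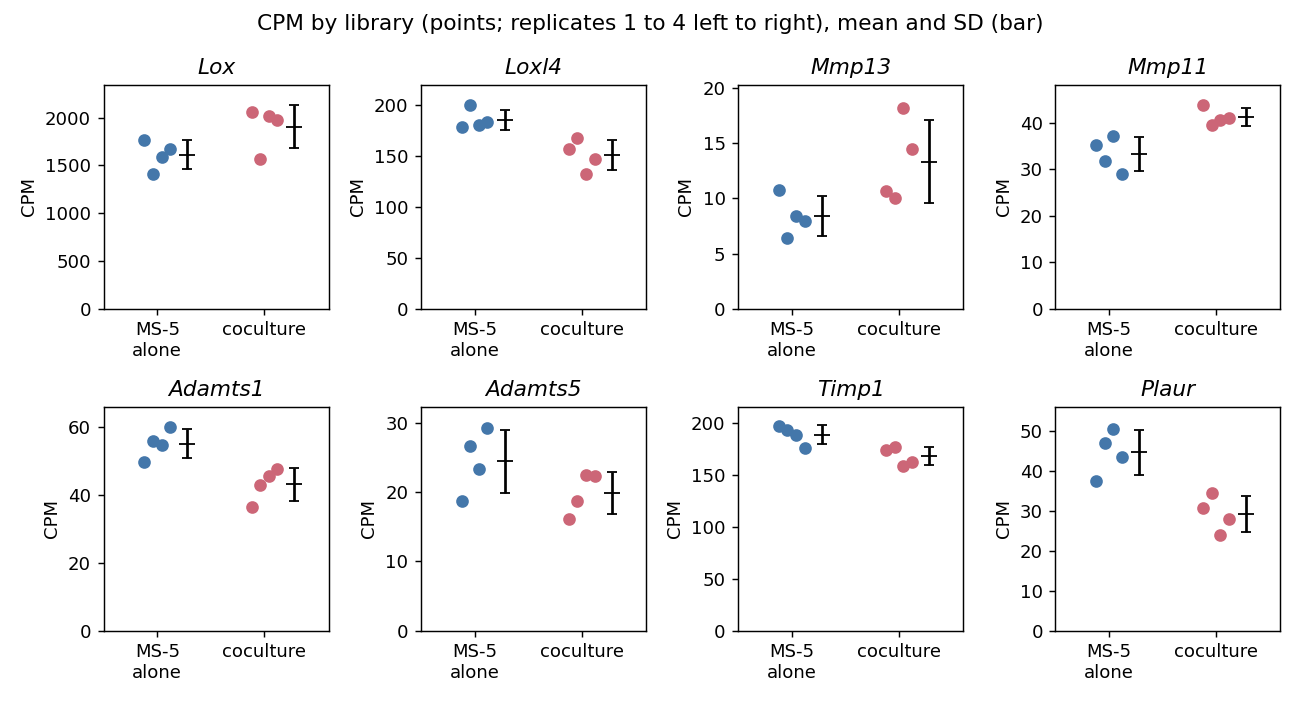
CPM of Lox, Loxl4, Mmp13, Mmp11, Adamts1, Adamts5, Timp1 and the plasminogen activator receptor gene Plaur in each library (points, replicates 1 to 4 from left to right), with the mean and SD as a bar, for MS-5 alone in blue and coculture in red, 4 libraries each. The points of Loxl4, Adamts1 and Plaur lie lower in all 4 coculture libraries and those of Mmp11 higher, and those of the other 4 genes overlap.

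Summed over a family, the lysyl oxidases held 2155 ± 134 CPM alone and 2443 ± 198 CPM in coculture, the Adam genes 1105 ± 41.4 and 1142 ± 58.8 CPM, the inhibitors 657 ± 29.4 and 636 ± 41.3 CPM, the Mmp genes 460.3 ± 26.3 and 496 ± 13.8 CPM, and the Adamts genes 213 ± 10.4 and 205 ± 15 CPM (SD, n = 4 each). The ranges of the groups overlapped in all 5 families. Within a family 1 gene often led: Lox made up 72.9% of its family's RPKM alone and 76.4% in coculture, Timp1 63.8 and 61.2%, Adam9 45.8 and 44.8%, Adamts2 40.5 and 46.7%, and Mmp14 25.2 and 24.3%. Together the members took 0.436 to 0.485% of the mouse counts alone and 0.458 to 0.524% in coculture.

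**Figure D4:**
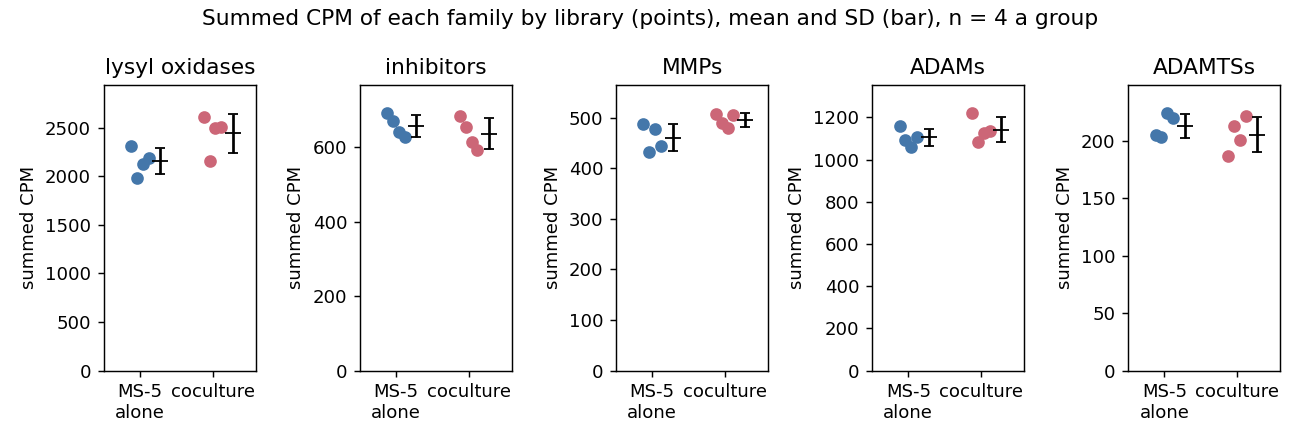
Summed CPM of each of the 5 families by library (points), with the mean and SD as a bar, for MS-5 alone (blue) and coculture (red), 4 libraries each, with every axis starting at 0. The groups overlap in all 5 panels, from 213 CPM alone and 205 CPM in coculture for the Adamts genes to 2155 and 2443 CPM for the lysyl oxidases.

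Of the 83 members 34 were at 0 counts in all 8 libraries, 17 had between 2 and 94 counts in all, at most 30 in one library, and did not pass the filter on low counts, and 32 were tested. The filter keeps a gene that is counted in 1 group only, so the tested members are not the whole set. Besides the genes named above, Mmp15, Mmp17, Mmp21, Mmp24 and Mmp25 were counted but not tested, with 59, 12, 3, 94 and 2 counts, and Mmp16 was at 0.

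Genes related to these enzymes were read from 5 lists set by function, of 90 genes in all. Of these 61 were tested and 1 was called, and the tested genes had a median of -0.018 on the log2 scale. An unadjusted p below 0.05 was seen for 11 of the 61, against 11.3% of all genes. In the list of the plasminogen system and of the activation and restraint of metalloproteinases, 11 of 20 genes were tested, none was called higher and 1 was called lower, against 0.041 and 0.164% of all genes. This gene was Plaur, the receptor that holds urokinase at the cell surface (chromosome 7, 24462484 to 24475968), at 37.5, 47.1, 50.6 and 43.4 CPM alone and 30.7, 34.5, 23.9 and 28 CPM in coculture. All coculture libraries were below all libraries of MS-5 alone (log2 fold change -0.61, SE 0.11, 95% interval -0.85 to -0.37, adjusted p = 0.0160). It lost the call when replicate 3 or 4 was left out of both groups, and also without the single libraries of MS-5 alone 2, 3 or 4 or of coculture 3.

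Of the 61 tested genes of the 5 lists 2 had an adjusted p of at most 0.05, against 0.77% of all genes. Besides Plaur this was Thbs2, thrombospondin 2, a matrix protein that binds metalloproteinases for uptake, named after its values were seen. Its level was 6807, 6511, 6516 and 6602 CPM alone and 7885, 7809.9, 8331 and 8225 CPM in coculture, higher in 4 of 4 coculture libraries at a fold below 1.5 (log2 fold change 0.29, SE 0.039, 95% interval 0.20 to 0.37, adjusted p = 0.00180). The activator genes Plau and Plat of the same list were tested and not called.

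No gene was called in the other 4 lists. Among 9 partners of Adam10 and Adam17 (tetraspanins and inactive rhomboid proteins) 7 were tested and 6 had intervals within 1.5-fold. Among 21 membrane proteins that ADAM proteases release 20 were tested, with a median log2 fold change of -0.044, and 4 had an unadjusted p below 0.05, against 11.3% of all genes. These 4, named after their values were seen, were Cx3cl1, a membrane-bound chemokine (log2 fold change 0.41), Sdc1, a syndecan (0.13), Csf1, a macrophage growth factor (-0.23), and Ereg, a ligand of the EGF receptor (-0.37), with adjusted p from 0.0751 to 0.367. Among 26 genes of elastic fibres and of procollagen maturation 18 were tested and 17 had intervals within 1.5-fold. Eln, the elastin gene itself, was at 0 counts in all libraries. Here 3 of the 18 tested genes, also named after their values were seen, had an unadjusted p below 0.05, against 11.3% of all genes. They were Efemp1 (log2 fold change 0.18), Fbln1 (0.18) and Fbln2 (-0.20), with adjusted p from 0.135 to 0.403. Among 14 genes of ADAMTS-like proteins, hyalectan proteoglycans and other matrix proteins (Comp, Matn2 and Matn3) 5 were tested. Of these 5, Matn2 (log2 fold change 0.27) and Adamtsl5 (-0.22) had an unadjusted p below 0.05, against 11.3% of all genes. Their adjusted p was 0.135 and 0.424. Of the 11 stromal markers tested, Cxcl12 and Acta2 had an adjusted p of at most 0.05, against 0.77% of all genes. Both were below the fold minimum, with log2 fold changes of 0.46 and -0.50 (adjusted p = 0.0486 and 0.000944).

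REC-1 cells expressed some of the same families, and the human counts under the matching symbol in the 4 Adh libraries were set beside the mouse counts. MMP2, MMP9 and MMP13 had 0 human counts, and TIMP1, LOX, LOXL1, LOXL3 and LOXL4 at most 18. The human counts were 2520 for ADAM9, 2423 for ADAM10 and 1576 for ADAM17, where mouse counts made up 95, 94.3 and 88.8% of both species. For ADAM19 and ADAMTS6 the species were near equal, with 52.4 and 48.6% mouse, and for ADAMTS9 the mouse counts were 7.73% of both. ADAM28 had 92 human counts while mouse Adam28 stayed at 0. When 1% of the human count was subtracted from each mouse count, Adamts9 no longer passed the filter, 31 members were tested and none was called.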

How the data were processed

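Human and mouse read pairs were separated by the authors with Xenome, aligned with STAR 2.5.1b to GRCh38 and GRCm38 (uniquely mapping reads only) and counted on genes with featureCounts of Subread 1.5.2. The deposited values were whole-number counts per gene, neither normalized nor filtered, and of the counts from 1 to 20 between 71.1 and 78.6% were even, so that both mates of a pair may have been counted. Counting error at low levels is then larger than the counts imply. Libraries were poly-A selected and did not mark the strand.

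The 4 Adh and 4 MS-5 libraries were compared on mouse counts in edgeR 4.0.16 (R 4.3.3) with filterByExpr, TMM scaling and quasi-likelihood F-tests (legacy variant), over 12201 genes with Benjamini-Hochberg adjustment. The fit used no replicate term. CPM are counts scaled to TMM library sizes, and RPKM use the union of exons in GENCODE M21. SE is the absolute log2 fold change over the root of F, and intervals are 95%. On simulated counts with 200 genes changed by 1 log2 unit among 12098 tested, 200 were recovered with 1 false call. The changed genes were not drawn from the lowest counted genes, and all genes had the same dispersion. Recovery of smaller changes, such as those of most members, or of changes in genes of few counts was therefore not tested. Tests with other settings, with DESeq2 1.42.0 and without single libraries were alternatives. The related lists were chosen by function, and members and lists were chosen with earlier results of these data known. Full values are given for members with a mean of at least 10 CPM in 1 group, and of the lists for called genes. The other 20 sample columns of the count tables were not used.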

Additional observations from a re-analysis of the deposited data

Results flagged for a closer look

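In 5 of the 64 sets of 4 libraries tested (32 members in 2 groups), 1 library lay far from the other 3 by Dixon's criterion, and chance flags about 1 in 20 sets. All 5 were Adam genes, a family with 9 of the 32 tested members. Adam12 was at 51.5 CPM in replicate 4 of MS-5 alone, against 58.9 to 59.7 CPM in the others. Adam15 was at 67.9 CPM in replicate 3 of MS-5 alone, against 52.7 to 54.7 CPM. Adam8 was at 25.2 CPM in replicate 1 of the coculture, against 18.6 to 18.8 CPM. Adam19 was at 8.14 CPM in replicate 4 of MS-5 alone, against 14.3 to 15.3 CPM. Adam11 was at 0.340 CPM in replicate 2 of the coculture, against 0.502 to 0.518 CPM, at a level of few counts.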

How the results depend on the processing

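Of 687 alternative values of the tested members 658 kept the direction and the side of the threshold, 4 passed the threshold and 25 turned sign, in 8 genes. The 4 were those of Mmp13, at 0.65 with a replicate block, 0.66 with DESeq2, 0.67 without a low-count filter and 0.89 without replicate 1. The count of members called, 0, was accordingly 1 with the replicate block, 1 with DESeq2 and 1 without the filter, and 0 to 1 when replicates or single libraries were left out. Over all genes the count of 25 became 45 with the replicate block, 38 with DESeq2, 45 without the filter, 94 without a fold minimum and 7 to 36 when replicates or libraries were left out. The plasminogen list, with 1 call, had 0 to 1 in the latter and 2 (Plaur and Thbs2) without a fold minimum.

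The genes that turned sign had log2 fold changes in the main fit from -0.079 (Adamts10) to 0.17 (Adamts4), each with an interval that included 0. Timp2 was at 0.0072 with upper-quartile scaling, 0.0085 with library size only, 0.013 without the filter, 0.0013 with at least 10 counts in every library, 0.011 after thinning all libraries to the shallowest and 0.0032 after subtraction of human counts. Thinned, Adamts10 was at 0.058 and Adam17 at -0.013, and Adamts6 was at -0.0078 after the subtraction. With replicates or libraries left out, Timp2 ranged from -0.042 to 0.037, Adamts6 from -0.085 to 0.10, Adam9 from -0.018 to 0.038, Loxl1 from -0.0073 to 0.30, Adam19 from -0.012 to 0.27 and Adamts4 from -0.11 to 0.43, and Adamts10 from -0.25 to 0.0093. The causes were not tested.

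Between libraries with the same replicate number, deviations from the group means correlated over genes with r = 0.286, 0.0829, 0.0333 and 0.161. Each r was above 0. Libraries with different numbers were not compared in this way, so these values have no reference. The labels do not say what the number marks, so the main fit did not take the numbers as pairs and the block is given as an alternative. If the number marks a shared experiment, the main fit leaves out a pairing. With the block 5 members had an adjusted p of at most 0.05, against 0 in the main fit. Over all 12201 genes the count rose too, to 435 with the block from 94 in the main fit. Besides Mmp13, Adamts1, Loxl4 and Mmp11 had an adjusted p of at most 0.05, below the fold minimum, with the replicate block, DESeq2 and no filter, as did Lox with the block and no filter, and Lox and Loxl4 without coculture replicate 2. The SE reached 0.55 (Adam11) among the members below 10 CPM and 0.19 (Mmp13) among the others. It was not large for all low members, since that of Adamts6, at 7.71 CPM in both groups, was 0.14.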
